A study of Homo sapiens with 17 samples.

Results

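Human selenoprotein genes were chosen by name because their mRNA holds an in-frame UGA codon that is read as the amino acid selenocysteine. The 10 genes are GPX1, GPX4, TXNRD1, TXNRD2, SELENOF, SELENOT, SELENOK, SELENOS, SELENOW and SEPHS2. A count above 0 was found for 15660 genes at 36 h and for 17023 genes at 72 h, and the rule for membership is the UGA codon, not a measured value, although results of these data were known when the genes were picked. Each gene was represented by its transcript with the highest summed count at that time point. Of the 10 genes, 9 passed the minimum of a mean of 20 counts in both library types at each time and were tested among 9016 genes at 36 h and 10896 at 72 h. SELENOW did not pass, because of its footprint counts, and is described by its counts.

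The study measured ribosome footprints and mRNA in HEK293, a human embryonic kidney cell line, after nucleofection of a Cas9 ribonucleoprotein. All cells received the guide RNA sgIntron, which targets intron 12 of JAK2. The comparison was between Cas9, which cuts the DNA, and dCas9, which carries the same guide and does not cut. At 36 h there were 2 footprint and 3 mRNA libraries from Cas9 cells and 2 footprint and 2 mRNA libraries from dCas9 cells, and at 72 h there were 2 libraries of each kind, 17 in all. No untreated cells were among them. By the study's methods a replicate was 1 plate that pooled several electroporations, and footprints and mRNA were prepared from the same lysates. The guide was made by chemical synthesis for the 36 h experiment only, so time differs together with the guide preparation, the aligner and the annotation, and these cannot be told apart.

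Selenocysteine is the selenium analogue of cysteine, and it sits at the active site of most enzymes that contain it. UGA normally ends translation. In selenoprotein mRNAs a hairpin in the 3′ UTR, the SECIS element, recruits SECISBP2, the elongation factor EEFSEC and a dedicated tRNA, so that a ribosome at the UGA either inserts selenocysteine and goes on or stops there. An mRNA on which ribosomes stop ahead of an exon junction can also be degraded by nonsense-mediated decay.

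The sequences around the UGA are shown because its place in the coding region is what sets the 10 genes apart from one another. Each line gives 30 bases of the transcript, 5′ to 3′, from GENCODE release 44 on GRCh38, with the selenocysteine codon in capitals (T stands for U).
GPX1: gtggcgtccctcTGAggcaccacggtccgg
GPX4: gtggcctcccagTGAggcaagaccgaagta
SELENOW: tattgtggcgctTGAggctacaagtccaag
SELENOT: atttgtgtttccTGAggttataggcgggtg
SEPHS2: ggcatgaagggcTGAggctgcaaggtcccg
SELENOF: gaagtttgtggaTGAaaattgggaaggttc
TXNRD1: caggctggctgcTGAggttaagccccagtg
TXNRD2: gtgacaggctgcTGAgggtaagcgccatcc
SELENOK: atggctggtggaTGAggaaggtaaatgtct
SELENOS: tcatctggcggaTGAggctaagaatcttgt
In 9 of the 10 genes the base after the UGA was G, and in SELENOF it was A. In TXNRD1, TXNRD2 and SELENOS the printed lines reach the true stop codon, taa, after 1 further codon, and in SELENOK after 2. The UGA was codon 648 of 649 in TXNRD1, 523 of 524 in TXNRD2, 188 of 189 in SELENOS and 92 of 94 in SELENOK. In the other 6 genes it lay far upstream. It was codon 13 of 87 in SELENOW, 49 of 203 in GPX1, 49 of 195 in SELENOT, 60 of 448 in SEPHS2 and 96 of 165 in SELENOF. For GPX4 the rule kept different transcripts at the 2 times, with the UGA at codon 73 of 197 at 36 h and at codon 46 of 242 at 72 h. The 72 h transcript carries 2 annotated selenocysteine codons, and the position is that of the first. The share of the coding region after the UGA was therefore 86.6% in SEPHS2, 85.1% in SELENOW, 75.9% in GPX1, 74.9% in SELENOT, 62.9% or 81.0% in GPX4 and 41.8% in SELENOF, and at most 2.13% in the other 4. SEPHS2 has a single exon, and its UGA is at chr16:30445548-30445550 (GRCh38, minus strand). The GPX1 codon is in exon 1 of 2 (chr3:49358132-49358134, minus strand), 105 bases ahead of the last exon junction, and the GPX4 codon is in exon 3 of 7 (chr19:1105403-1105405, plus strand).

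The counts of a library over the kept transcripts ranged from 689636 to 4868580 for footprints at 36 h, a 7.06-fold range, and from 3183558 to 8864461 for footprints at 72 h. The mRNA libraries held 25095505 to 42825659 counts. Levels are given in CPM, the counts scaled to the library's depth with TMM factors within a library type, and comparisons between genes as CPM per kb of counted coding sequence. The counted length was 20 codons below the coding length at 36 h and 19 at 72 h, except for SEPHS2 at 36 h, where 463 codons were counted against 448 in GENCODE 44. The comparisons of Cas9 with dCas9 and of footprints with mRNA do not use this length. Replicates of 1 group differed by 2.90 to 37.1 times the sampling variance (chi-square per degree of freedom), so none were the same library deposited again. Of the 4 markers listed for HEK293, VIM, CDH2 and INA were present in every library (INA at least 10.4 CPM), while PAX2 was at or near 0 (2.03 CPM or less), and the markers of other cells HBG1, HBG2, GATA1, PTPRC and ALB stayed at 0.943 CPM or less. JAK2, the gene that holds the cut site, had 4.34 to 11.1 CPM of mRNA and was below the footprint minimum.

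The 10 mRNAs covered a wide range of abundance. The glutathione peroxidases GPX1, which reduces hydrogen peroxide in the cytosol, and GPX4, which reduces lipid hydroperoxides in membranes, led the order at both times. In dCas9 cells at 36 h the mRNA level per kb was 666 ± 50.0 CPM for GPX1 and 604 ± 71.6 for GPX4 (mean ± SD, n = 2), and the libraries of the pair overlapped. SELENOF, a protein of the endoplasmic reticulum that binds the glycoprotein folding sensor, followed at 219 ± 39.5 CPM per kb. SEPHS2, TXNRD1, SELENOW, SELENOS, SELENOK and SELENOT formed a group whose neighbours in the order overlapped, ending at 76.9 ± 1.43 for SELENOT. TXNRD2, the thioredoxin reductase of mitochondria, was lowest at 24.9 ± 0.0541 CPM per kb, 26.7-fold under GPX1. At 72 h GPX4 (554 ± 53.5) and GPX1 (545 ± 72.3) were again highest and overlapped, and TXNRD2 (23.7 ± 0.749) was again lowest.

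Footprints kept this order only in part. At 36 h GPX1 was also highest in footprints per kb, with 306 ± 74.0 CPM in dCas9 and 321 ± 91.3 in Cas9 cells (mean ± SD, n = 2). SELENOF (176 ± 14.5) lay above GPX4 (135 ± 26.2) in dCas9 cells and below it in Cas9 cells (119 ± 8.20 against 244 ± 55.8). In dCas9 cells at 72 h the highest footprint level per kb was that of SELENOF, at 183 ± 0.749 CPM, followed by GPX1 at 174 ± 0.564 and GPX4 at 101 ± 4.65. Thus in dCas9 cells at 72 h GPX1 and GPX4 had fewer footprints per kb than SELENOF. Their mRNA levels there were 545 and 554 CPM per kb against 184 for SELENOF. SELENOW was lowest, at 10.5 ± 7.81 CPM per kb of footprints. In Cas9 cells at 72 h the footprints of SELENOF (186 ± 7.66) and GPX1 (177 ± 7.63) overlapped.

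**Figure D1:**
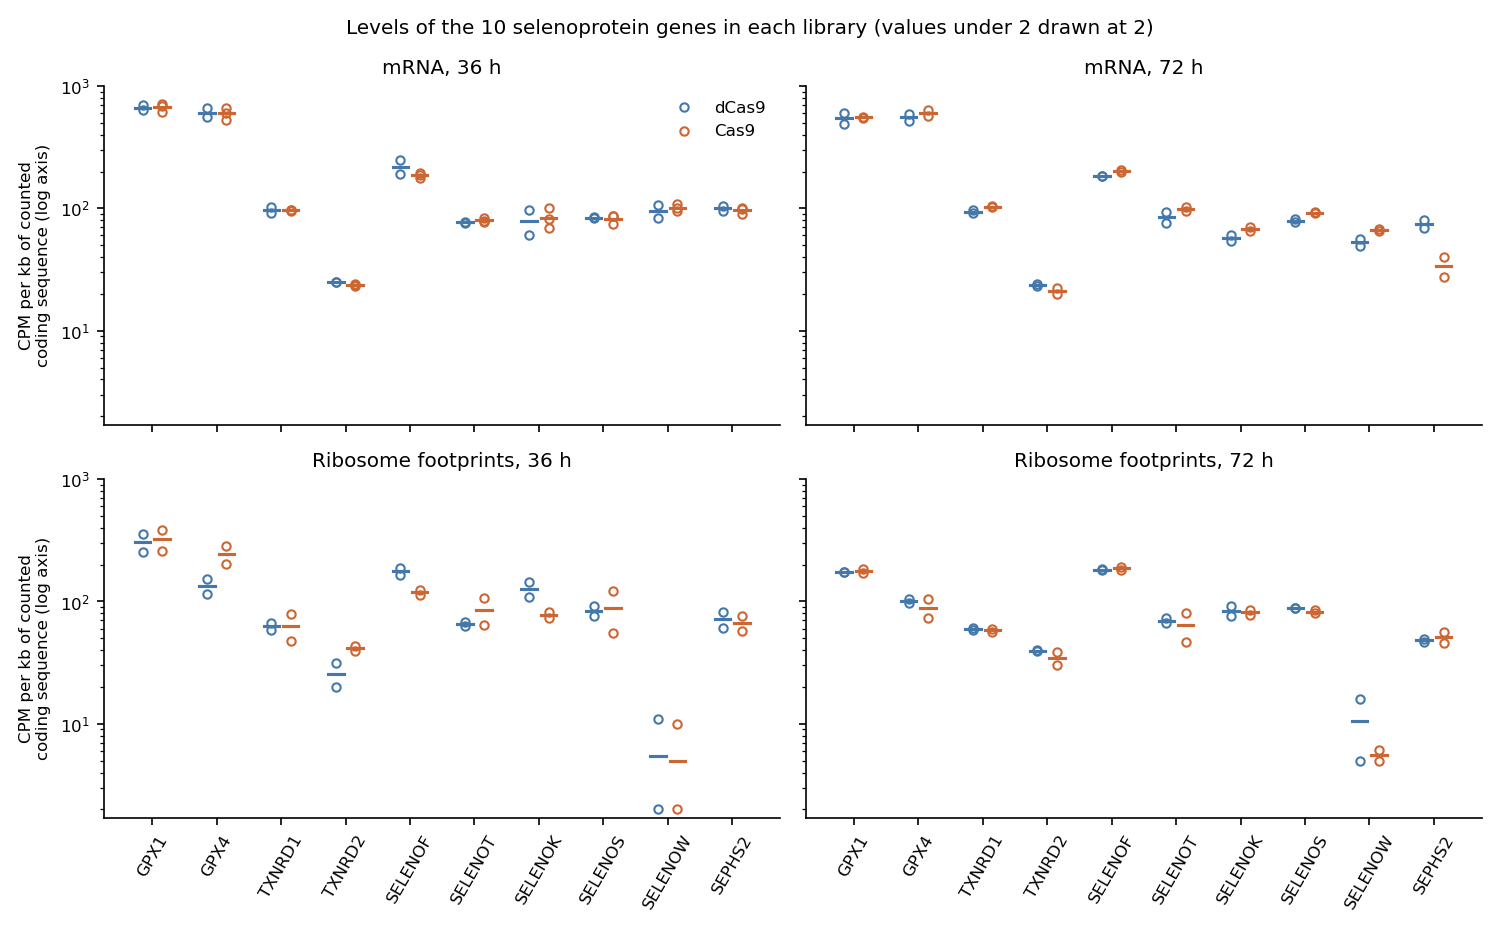
Level of each gene in each library, as CPM per kb of counted coding sequence on a log axis, for mRNA (top) and ribosome footprints (bottom) at 36 h and 72 h; circles are libraries and short lines are group means. GPX1 and GPX4 lead the mRNA panels, SELENOW lies far below the other genes in the footprint panels, and SEPHS2 mRNA at 72 h is lower in Cas9 (mean 34.0 CPM per kb) than in dCas9 cells (mean 74.5).

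The first question was how many footprints each mRNA carried, and the comparison of footprints with mRNA in dCas9 cells answers it. Values are log2 ratios of footprints to mRNA from the joint edgeR fit, relative to the whole set of genes, called at a false discovery rate of 0.1 with Benjamini-Hochberg adjustment. At 36 h 3 of the 9 tested genes were called lower, against 24.6% of all tested genes, and 1 was called higher, against 23.6%. At 72 h 4 were called lower, against 37.8%, and 3 higher, against 32.7%. With the replicate letter as a block, 2 of the 9 genes were called at 36 h. TXNRD1 (adjusted p = 0.109) and SELENOK (adjusted p = 0.208, edgeR) were not among them. At 72 h the block joins Cas9 with dCas9 libraries of the same letter, and SEPHS2 and SELENOS lost their calls (adjusted p = 0.126 for both, edgeR). The counts by themselves were close to what all genes gave, and the median over the 9 genes was -0.19 at 36 h and -0.14 at 72 h, beside -0.01 and -0.06 over all tested genes.

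GPX4 and GPX1 had the lowest ratios of the 9 tested genes. Among the further selenoprotein genes described below, SELENOP (-1.23 at 36 h) lay below GPX1 (-1.03). At 36 h GPX4 footprints were 81.3 and 61.6 CPM in the dCas9 libraries d and e, and GPX4 mRNA was 294 and 348 CPM. The ratio was -1.94 on the log2 scale (SE 0.19, adjusted p = 1.71e-06, edgeR), lower than in all but 2.09% of tested genes. At 72 h the kept transcript had 70.0 and 65.6 CPM of footprints and 396 and 345 CPM of mRNA, a ratio of -2.31 (SE 0.13, adjusted p = 6.37e-10, edgeR). That transcript, which is 242 codons long, differs from the one kept at 36 h, and with the 36 h transcript in its place the 72 h ratio was -1.29 (adjusted p = 1.17e-07, edgeR). The size of the GPX4 value at 72 h therefore depends on the transcript, and so does its rank, since GPX1 (-1.50) is then the lower of the pair. Its direction does not.

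At 36 h GPX1 had 139 and 197 CPM of footprints and 346 and 385 CPM of mRNA in dCas9 cells, with a log2 ratio of -1.03 (SE 0.19, adjusted p = 0.000618, edgeR). At 72 h it had 96.5 and 96.1 CPM of footprints against 329 and 272 CPM of mRNA, a log2 ratio of -1.50 (SE 0.11, adjusted p = 7.04e-09, edgeR). At each time every dCas9 footprint library lay below every dCas9 mRNA library in CPM for both peroxidases. The same held for TXNRD1, SELENOF, SELENOT and SEPHS2, including SELENOF at 72 h, whose fitted ratio was 0.13. CPM is scaled within each library type, so this separation is not by itself a sign of a low ratio. GPX1 has 2 named pseudogenes and overlaps a transcript on the same strand. SELENOK has 3 named pseudogenes, SELENOT 2, and SELENOW and SEPHS2 1 each. Reads of these 5 genes are uncertain to that extent, since the counting could split them.

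TXNRD1, the cytosolic thioredoxin reductase, carried moderately few footprints for its mRNA at both times, with log2 ratios of -0.49 at 36 h (SE 0.19, adjusted p = 0.048, edgeR) and -0.51 at 72 h (SE 0.10, adjusted p = 0.000299, edgeR). The 36 h call was lost after GC correction (-0.28, adjusted p = 0.229), without mRNA library e of the dCas9 cells (-0.40, adjusted p = 0.230) and without their footprint library d (-0.36, adjusted p = 0.265, edgeR). TXNRD2 had a ratio of 0.30 (adjusted p = 0.319, edgeR) at 36 h and was called higher at 72 h at 0.89 (SE 0.14, adjusted p = 2.8e-05, edgeR). Both reductases have their UGA next to the stop codon, and their intervals of 2 SE at 72 h (-0.71 to -0.31 for TXNRD1 and 0.62 to 1.16 for TXNRD2) did not overlap. SELENOK, a small membrane protein of the endoplasmic reticulum, was called higher at 36 h (0.88, SE 0.35, adjusted p = 0.0587, edgeR) and at 72 h (0.68, SE 0.17, adjusted p = 0.00262, edgeR). The 36 h call rested on single libraries and was lost without mRNA library d of the dCas9 cells (0.58, adjusted p = 0.330) or without footprint library d (0.62, adjusted p = 0.385), and narrowly without Cas9 mRNA library b or c (adjusted p 0.104 and 0.115, edgeR). SELENOS, a membrane protein of the degradation pathway of the endoplasmic reticulum, was called higher at 72 h (0.31, SE 0.12, adjusted p = 0.0407, edgeR), and without either dCas9 footprint library this call was lost (adjusted p 0.124 and 0.139).

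SELENOF (-0.19 at 36 h and 0.13 at 72 h) and SELENOT (-0.06 and -0.14) were not called at either time. SELENOT is a thioredoxin-fold protein of the endoplasmic reticulum. SEPHS2, the synthetase that makes the selenium donor for selenocysteine and is itself a selenoprotein, had a ratio of -0.40 at 36 h (adjusted p = 0.105, edgeR) and was called lower at 72 h at -0.48 (SE 0.16, adjusted p = 0.0166, edgeR), a call that was lost without dCas9 footprint library f (-0.44, adjusted p = 0.115).

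SELENOW, a small redox protein abundant in muscle and brain, stood apart by its footprints. At 36 h the 4 footprint libraries held 0 and 5 counts in Cas9 cells and 11 and 0 in dCas9 cells, while the 5 mRNA libraries held 417 to 674 counts. At 72 h the footprint counts were 4 and 6 in Cas9 cells and 22 and 9 in dCas9 cells, and the mRNA counts were 395 to 479. Its mRNA level per kb was 95.2 ± 15.8 CPM in dCas9 cells at 36 h, close to the 96.8 ± 8.01 of TXNRD1. At 72 h it was 52.7 ± 5.04 CPM per kb, above TXNRD2 alone. The ratio of footprints to mRNA, relative to the median tested gene, was 0.0659 at 36 h and 0.230 at 72 h in dCas9 cells. At these counts no test was made, and the 68 codons counted at 72 h give the shortest counted region of the 10 genes. Of the 87 SELENOW codons, 20 were not counted at 36 h and 19 at 72 h, and at which end was not settled. The UGA is codon 13, so if they lay at the start, footprints before the UGA were not counted.

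Set beside the position of the UGA, the ratios ordered as follows. In dCas9 cells at 72 h the 4 genes whose UGA is within 2 codons of the stop had ratios of 1.93 (TXNRD2), 1.68 (SELENOK), 1.29 (SELENOS) and 0.728 (TXNRD1) relative to the median tested gene. Of the genes with an upstream UGA, SELENOF had 1.14, SELENOT 0.940, SEPHS2 0.745, GPX1 0.368, SELENOW 0.230 and GPX4 0.210. The GPX4 value is that of its 242-codon transcript, with 81% of the coding region after the UGA. With the 36 h transcript (62.9%) its 72 h ratio in the edgeR fit was higher and lay above that of GPX1. The 2 groups overlapped, since SELENOF, SELENOT and SEPHS2 lay above TXNRD1. The 3 lowest genes at both times, SELENOW, GPX4 and GPX1, all had an upstream UGA, and these 3 also included the 2 most abundant mRNAs. The 10 values come from the same libraries and counting, the coding regions differ in length from 87 codons (SELENOW) to 649 (TXNRD1), and no test was made over the genes.

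**Figure D2:**
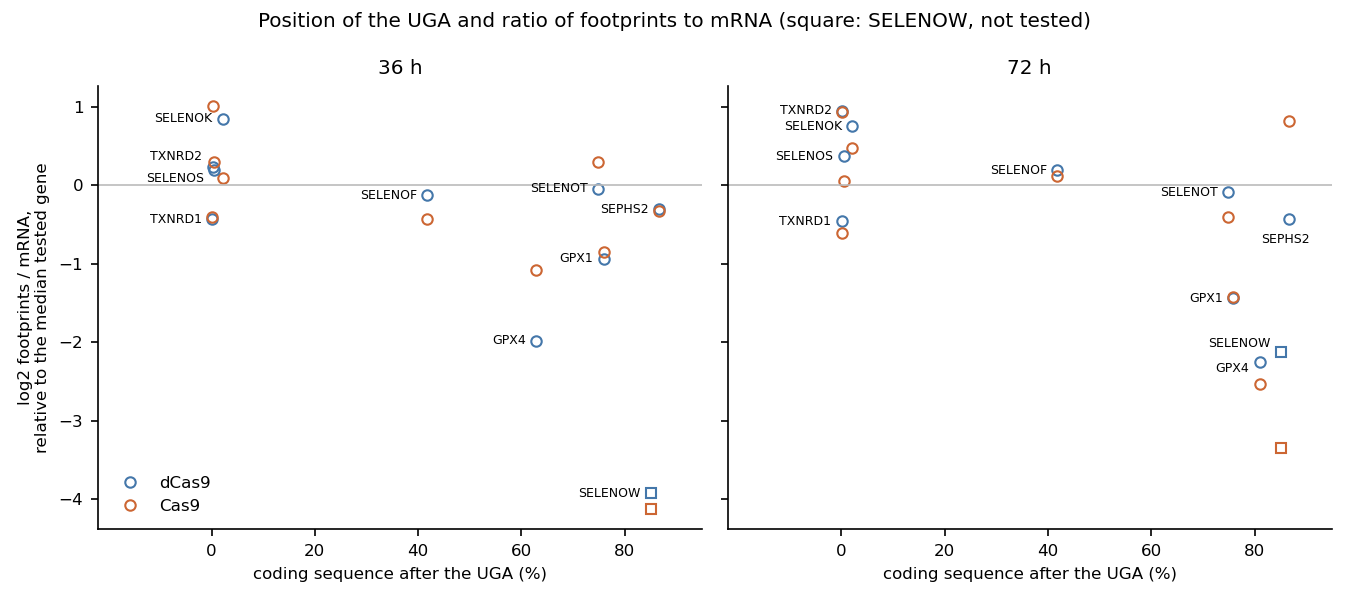
Ratio of footprints to mRNA (group means, log2, relative to the median tested gene) against the percentage of the coding sequence that lies after the UGA, at 36 h and 72 h in dCas9 and Cas9 cells. Genes with the UGA next to the stop (left) lie between the TXNRD1 ratio of 0.728 and the TXNRD2 ratio of 1.93 in dCas9 cells at 72 h, and genes with an upstream UGA spread down to SELENOW and GPX4. At 72 h GPX4 is drawn for its 242-codon transcript, and its ratio and position depend on that transcript.

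The tables for 72 h list shorter coding isoforms beside the kept one, which makes it possible to split the counts of a gene at a boundary inside its coding region. This split was chosen after values of these isoforms had been seen. A shorter isoform that shared either the start or the end of the kept coding region gave the counts on one side, and subtraction from the kept isoform gave the other. Of the 10 genes, 6 had such a pair. For each library the share of counts after the boundary was taken, and the log2 ratio of counts after to counts before was compared between the 4 footprint and the 4 mRNA libraries. Lengths cancel in this comparison. The boundaries are those of the coding regions. At 72 h 19 codons of each kept member transcript were not counted, so the true split of the counts may lie some codons away.

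In the 3 genes whose UGA lies before the boundary, footprints were depleted after it. For SELENOT, with the UGA at codon 49 and the boundary at codon 59, 82.6% to 88.5% of mRNA counts came after the boundary, and of the footprint counts 27.2% in both dCas9 libraries and 38.5% and 25.3% in the Cas9 libraries. The difference was -3.87 on the log2 scale, in percentile 1.01 of the 2624 genes with an isoform that shares the end. For GPX1, with the UGA at codon 49 and the boundary at codon 84, mRNA libraries had 72.9% to 74.2% of counts after the boundary and footprint libraries 23.2% to 30.5%. The difference was -2.85, in percentile 2.05 of the 1929 genes with an isoform that shares the start. For SELENOF, with the UGA at codon 96 and the boundary at codon 130, the shares were 44.7% to 51.1% for mRNA and 13.9% to 17.7% for footprints, a difference of -2.26 in percentile 4.02. In each of these 3 genes all 4 footprint libraries, cut or not, lay below all 4 mRNA libraries.

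In the genes whose UGA lies after the boundary the shares were much closer. TXNRD1 (boundary at codon 189) had 83.0% to 86.6% of mRNA counts and 76.1% to 82.6% of footprint counts after the boundary, a difference of -0.45 in percentile 37.7, again with no overlap. TXNRD2 overlapped between library types at both of its boundaries, with differences of -0.14 at codon 316 and 0.03 at codon 363. SELENOS (codon 26) had 88.7% to 92.6% for mRNA and 90.9% to 93.4% for footprints, a difference of 0.11. The 4 genes with complete separation are to be read against the background, in which the footprint libraries lay wholly below the mRNA libraries in 27.8% of genes with an isoform that shares the end and 30.2% of those that share the start, with median differences of -0.16 and -0.25. Separation by itself was thus common, and the differences of SELENOT, GPX1 and SELENOF lay in percentiles 1.01 to 4.02. mRNA made from the shorter isoform itself adds to the mRNA counts on its side of the boundary and cannot be told apart from the shared part. The shorter isoform of GPX1 also has 14.3% of its coding bases outside the kept one, and that of SELENOF 9.49%.

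**Figure D3:**
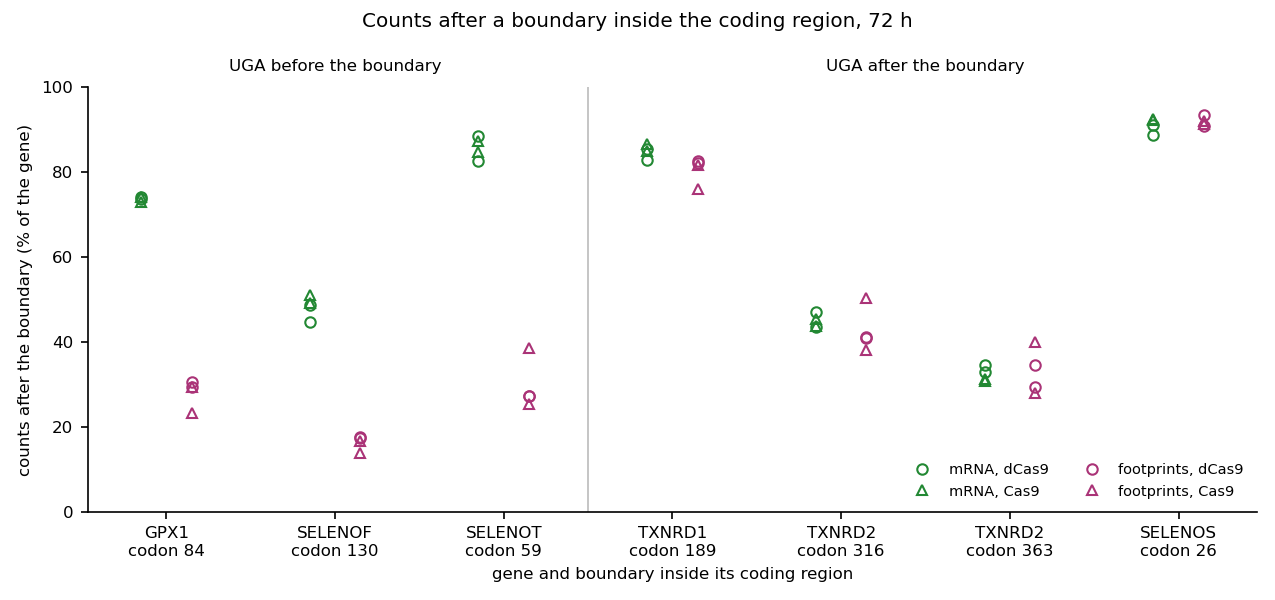
Percentage of the counts of a gene that lie after a boundary inside its coding region at 72 h, for the 4 mRNA (green) and 4 footprint (purple) libraries; circles are dCas9 and triangles Cas9. In GPX1, SELENOF and SELENOT, whose UGA comes before the boundary, every footprint library lies below every mRNA library (13.9% to 17.7% against 44.7% to 51.1% in SELENOF), and in TXNRD1, TXNRD2 and SELENOS the library types lie close together.

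The study's own question was what a double-strand break does to translation, which for these genes is the comparison of Cas9 with dCas9. At 36 h no selenoprotein gene passed the threshold. In footprints 0 of 9 genes were called, as 0% of all tested genes were. An unadjusted p under 0.05 was found for 1 of the 9, beside 188 of 9016 tested genes. In mRNA 0 of 9 were called, beside 0.0222% of all tested genes, and in translational efficiency, the change in the ratio of footprints to mRNA, 0 of 9, beside 0%. In each of these, too, 1 of the 9 had an unadjusted p under 0.05, beside 422 (mRNA) and 568 (translational efficiency) of 9016 tested genes. DESeq2 called 0 of 9 in all 3. The study itself reported genes with changed footprints at 36 h, by DESeq2 at the same threshold. Here DESeq2 called 0 of all tested genes in footprints at 36 h, and the cause of the difference was not tested.

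The gene with the smallest unadjusted p at 36 h was GPX4. Its footprints were 150 and 109 CPM in Cas9 cells and 81.3 and 61.6 CPM in dCas9 cells, and its mRNA was 323, 348 and 280 CPM against 294 and 348. Both Cas9 footprint libraries were above both dCas9 libraries, while the mRNA overlapped. The log2 change was 0.81 in footprints (SE 0.30, adjusted p = 0.999, edgeR) and 0.78 in translational efficiency (SE 0.25, adjusted p = 0.78, edgeR), so it did not hold after correction. At 72 h the corresponding values for GPX4 were -0.15 and -0.28. The shallowest library, footprints of dCas9 replicate e, held 41 GPX4 counts.

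The other values at 36 h had wide intervals. TXNRD2 footprints were 65.6 and 59.3 CPM in Cas9 cells and 47.4 and 30.1 in dCas9 cells, a log2 change of 0.63 (SE 0.39). SELENOK footprints were 18.3 and 16.1 CPM against 31.7 and 24.1, a log2 change of -0.73 with an interval of 2 SE from -1.92 to 0.47. SELENOF footprints were 49.4 and 54.5 CPM against 72.3 and 81.2, a log2 change of -0.55 (SE 0.34), and its mRNA change was -0.23 (SE 0.11, adjusted p = 0.999, edgeR). In these 3 genes, as in GPX4, the groups did not overlap in footprints. With 2 libraries against 2 such separation is weak evidence, and its share over all tested genes was not counted. The intervals of 2 SE of the footprint changes allowed either sign in each of the 3.

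At 72 h 1 gene, SEPHS2, changed. Its mRNA was 35.4 and 52.1 CPM in the Cas9 libraries a and b and 88.3 and 103 CPM in the dCas9 libraries a and b. Both Cas9 libraries were below both dCas9 libraries. The log2 change was -1.13, a fold of 0.456 (SE 0.18, adjusted p = 0.0243, edgeR), lower than in all but 0.138% of tested genes. SEPHS2 was 1 of 9 genes called in mRNA, beside 2.69% of all tested genes. Of all tested genes 290 were called lower and 3 higher, so SEPHS2 went the way of nearly every call. With a correction for GC content, which is 57.7% in the SEPHS2 coding region, the change was -1.07 (adjusted p = 0.000117, edgeR). Without Cas9 mRNA library a, the change was -0.88 and was not called (adjusted p = 0.185, edgeR). In a bulk lysate a change in all cells and a larger change in some of them cannot be told apart.

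The footprints of SEPHS2 did not follow. They were 59.4 and 72.9 CPM in Cas9 cells and 64.0 and 60.1 in dCas9 cells, with overlap, and the log2 change was 0.11 with an interval of 2 SE from -0.13 to 0.35. That interval lies wholly above the change in mRNA. The translational efficiency of SEPHS2 was accordingly higher in Cas9 cells, with a log2 change of 1.24 (SE 0.24, adjusted p = 0.041, edgeR), above 99.8% of tested genes. It was higher in 16 of 16 combinations of libraries, which reuse the same libraries. EEFSEC and TXN2 were also higher in 16 of 16 and were not called. SEPHS2 was 1 of 9 genes called in translational efficiency, beside 0.716% of all tested genes, with 76 of all tested genes called higher and 2 lower. With libraries of either type left out 1 at a time, its log2 change ran from 1.00 to 1.57. Leaving out any 1 of the 4 footprint libraries kept the value between 1.08 and 1.37 and lost the call (adjusted p from 0.153 to 0.369). At 36 h SEPHS2 mRNA was 139, 125 and 138 CPM in Cas9 cells and 145 and 133 in dCas9 cells, with a log2 change of -0.05. The ratio of SEPHS2 footprints to mRNA, relative to the median gene, was 0.796 and 0.809 in Cas9 and dCas9 cells at 36 h, and 1.77 and 0.745 at 72 h.

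No other selenoprotein gene was called at 72 h. In footprints 0 of 9 were called by edgeR and by DESeq2, beside 0.0367% of all tested genes. None of the 9 had an unadjusted p under 0.05, beside 418 of 10896 tested genes. The 8 other mRNA changes ran from -0.17 for TXNRD2 to 0.25 for SELENOK, and 7 of the 8 were above 0. Of the 10896 tested genes 5791 were above 0, and no test was made over the 8. After GC correction SELENOS mRNA was also called, at 0.26 (adjusted p = 0.0584, edgeR). GPX1, with 310 and 301 CPM of mRNA in Cas9 cells and 329 and 272 in dCas9 cells, changed by 0.03 with an interval of 2 SE from -0.23 to 0.28, and its footprints changed by 0.03, with an interval from -0.17 to 0.23. For TXNRD1 the interval of the footprint change was -0.23 to 0.16. These are the narrowest bounds the 72 h footprints gave among the 9 genes.

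**Figure D4:**
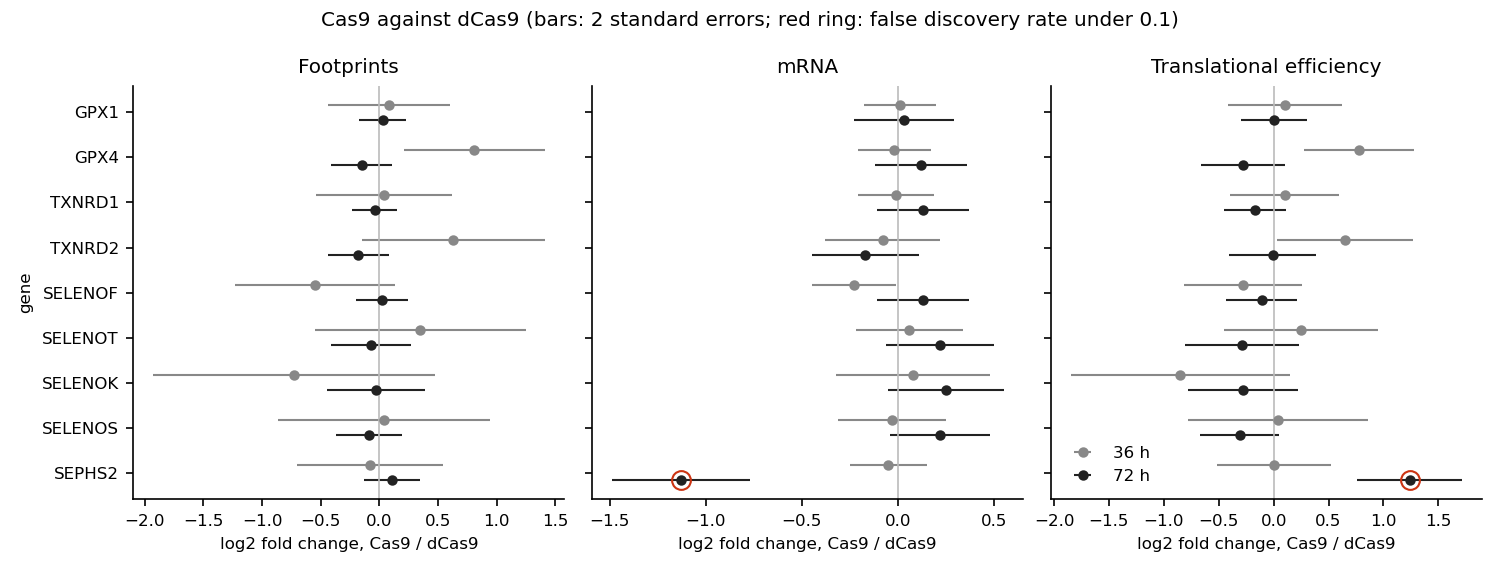
Log2 fold change of Cas9 against dCas9 for the 9 tested genes in footprints, mRNA and translational efficiency, at 36 h (grey) and 72 h (black), with bars of 2 standard errors. Rings mark the values past a false discovery rate of 0.1, which are SEPHS2 mRNA (-1.13) and SEPHS2 translational efficiency (1.24), both at 72 h.

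The genes whose levels over the 17 libraries were most like those of SEPHS2, with each library type and time centred, were U2AF1, which encodes a splicing factor subunit (Pearson r = 0.96), the gene ENSG00000275895 (r = 0.96) and TACC3, which encodes a spindle protein (r = 0.95), out of 8967 genes. U2AF1 and ENSG00000275895 are near-identical copies, between which the counting could split reads. The points share libraries and, for mRNA at 72 h, the same split between the groups.

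Of 15 further human selenoprotein genes 6 were tested at 36 h and 9 at 72 h. Both edgeR and DESeq2 called 0 of them for Cas9 against dCas9 in each of the 6 comparisons. An unadjusted p under 0.05 was found for 0 of them at 36 h. At 72 h it was found for 2 in footprints, 2 in mRNA and 1 in translational efficiency. Over all 10896 tested genes these numbers were 418, 1613 and 1220. The smallest p-values were those of MSRB1, a methionine sulfoxide reductase, in mRNA at 72 h (-0.68, adjusted p = 0.176, edgeR) and SELENOP, a selenium transport protein, in footprints at 72 h (0.34, adjusted p = 1.0, edgeR). In the ratio of footprints to mRNA in dCas9 cells, SELENOP was low at both times (-1.23 and -1.24), SELENOH was low at 36 h (-0.75), and SELENOI (1.13 and 1.23) and SELENOO (0.69 and 0.52) were high at both. MSRB1 was high at 72 h (1.33). Thus 2 of 6 were called lower and 2 higher at 36 h (24.6% and 23.6% of all tested genes), and 1 of 9 lower and 3 higher at 72 h (37.8% and 32.7%).

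The next list held 12 genes, of selenocysteine synthesis and insertion and of selenium uptake and recycling (LRP8 and SCLY). It gave 1 call for Cas9 against dCas9, in mRNA at 72 h, where 2.69% of all tested genes were called, nearly all of them lower. EEFSEC, the elongation factor that brings the selenocysteine tRNA to the ribosome, had lower mRNA in Cas9 cells at 72 h (-0.91, SE 0.17, adjusted p = 0.0282, edgeR), and its translational efficiency change of 0.92 was not called (adjusted p = 0.178, edgeR), while DESeq2 called 1 of the 12 genes there. At 36 h 0 of the 9 tested genes of this list were called by edgeR and by DESeq2. An unadjusted p under 0.05 was found for 1 of them, in mRNA, beside 422 of 9016 tested genes. TRIT1, which modifies tRNAs, had the smallest p in mRNA there (0.34, adjusted p = 0.999, edgeR). In the ratio of footprints to mRNA in dCas9 cells 9 of 12 were called lower at 72 h, beside 37.8% of all tested genes, and 1 higher, beside 32.7%, with a median of -0.81 beside -0.06 over all genes. At 36 h 4 of 9 were lower, beside 24.6%, and 1 higher, beside 23.6%, with a median of -0.44 beside -0.01. LRP8 was among those called lower at both times (-1.03 at 36 h and -1.06 at 72 h). At 72 h SECISBP2, which binds the SECIS hairpin, was lowest (-1.87), followed by ALKBH8, which modifies the wobble base of the selenocysteine tRNA (-1.42), and SEPHS1, the homolog of SEPHS2 with no selenocysteine (-1.33). EEFSEC was the gene called higher (1.20 at 36 h and 1.18 at 72 h).

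Of the 5 homologs that carry cysteine or another residue in place of selenocysteine, 2 were tested at 36 h and 4 at 72 h, with 0 calls by edgeR and by DESeq2 for Cas9 against dCas9 and 0 at an unadjusted p under 0.05. The smallest p of these was that of MSRB2 footprints at 72 h (0.73, adjusted p = 1.0, edgeR). SEPHS1 had fewer footprints for its mRNA at both times (-1.59 at 36 h). Its mRNA at 72 h changed by -0.17 (adjusted p = 0.515, edgeR), and the difference from SEPHS2 was not tested.

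Among 19 genes of the thioredoxin and glutathione systems, 16 were tested at 36 h, with 0 calls by edgeR and by DESeq2 for Cas9 against dCas9, and 19 at 72 h. At 36 h 1 gene in mRNA and 2 in translational efficiency had an unadjusted p under 0.05, beside 422 and 568 of 9016 tested genes. At 72 h 0 did in footprints, 3 in mRNA and 5 in translational efficiency, beside 418, 1613 and 1220 of 10896. The median change in translational efficiency at 72 h was -0.20, beside 0.00 over all tested genes, and 2 of 19 were above 0. The call at 72 h was TXN2, the mitochondrial thioredoxin, in mRNA (-0.66, SE 0.15, adjusted p = 0.0622, edgeR). There 2.69% of all tested genes were called, nearly all of them lower. The smallest p at 36 h was that of GCLM, a subunit of the enzyme that starts glutathione synthesis, in mRNA (-0.43, adjusted p = 0.902, edgeR). In the ratio of footprints to mRNA 12 of 19 were called higher and 2 lower at 72 h, beside 32.7% and 37.8% of all tested genes, with a median of 0.46 beside -0.06. At 36 h 5 of 16 were higher and 2 lower, beside 23.6% and 24.6%, with a median of 0.29 beside -0.01. PRDX2 (1.07), GLRX2 (1.00) and SRXN1 (0.99) were the highest at 72 h. At 36 h the highest of those called were PRDX2 (0.96), GCLM (0.84) and PRDX1 (0.72). The genes called lower were GLRX5 (-0.77) and PRDX5 (-0.70) at 36 h and GCLC (-0.59) and GSR (-0.34) at 72 h.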

How the data were processed

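Ribosome footprint and total RNA libraries (mRNA, after rRNA depletion) were made from HEK293 cells 36 h and 72 h after electroporation with Cas9 or dCas9 complexed with sgIntron. The authors deposited raw read counts per transcript, tabulated with fp-count over a stated length in codons. Per the study's methods, 36 h reads were aligned with hisat2 (HISAT2 2.1.0 in the submitters' processing notes) and counted on GENCODE 22, and 72 h reads with tophat on GENCODE 25. Counting was per transcript, so a read shared by isoforms entered each of them, and UGA-containing reading frames were counted past the UGA.

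The transcript with the highest summed count stood for each gene, and genes needed a mean of 20 counts in both library types. Footprints and mRNA were tested separately and translational efficiency as the interaction in a joint model, with edgeR 4.0.16 (glmQLFit, glmQLFTest, TMM, R 4.3.3), FDR 0.1 over all tested genes. The alternatives were DESeq2 1.42.0, limma 3.58.1, median-ratio size factors, no count minimum, the transcript of the other time, a loess correction for GC content with span 0.3, a replicate block and leaving out each library. Fits were tested on simulated data with known changes. Fold intervals are 2 SE.

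Groups came from the treatment and time labels. Transcript IDs were matched without version to GENCODE 44 (GRCh38) for names, UGA positions and sequence, for 25338 of 26679 coding transcripts at 36 h and 51798 of 54673 at 72 h. Isoform windows needed a summed count of 100, ends within 3 bases and at most 20% of the shorter isoform outside the kept one, and used a pseudocount of 0.5. The text names all 10 genes, and of 4 gene lists those past the threshold, at most 3 in each direction, or else the smallest p. The genes and lists were chosen with earlier results of these data known.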

Additional observations from a re-analysis of the deposited data

Results flagged for a closer look

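TXNRD2 footprints moved in opposite directions at the 2 times. At 36 h the log2 change of Cas9 against dCas9 was 0.63, higher in 4 of 4 pairs of libraries, and at 72 h it was -0.18, higher in 0 of 4 pairs. Neither change passed the threshold in edgeR, and the difference between the times was not tested. The 36 h and 72 h counts come from different aligners and annotations.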

How the results depend on the processing

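Of 1008 values of single genes under the alternatives, 906 kept their direction and their side of the threshold, 20 lost a call, 12 gained one and 70 changed sign, 0 of which had been called. With the GC correction, log2 values that changed sign were -0.01 for GPX1 footprints, 0.01 for GPX4 mRNA and -0.05 (GPX1) and -0.01 (SELENOS) for translational efficiency at 36 h, -0.08 for GPX1 translational efficiency at 72 h, and, for the ratio in dCas9 cells, -0.01 (TXNRD2), 0.02 (SELENOF) and 0.16 (SELENOT) at 36 h and 0.11 (SELENOT) at 72 h. The median ratio became -0.01 at 36 h and 0.11 at 72 h, and 72 h mRNA had 2 genes called with a median of 0.08, also with the replicate block added. Changes in translational efficiency that turned sign under other settings were 0.00 (SEPHS2, 36 h) and 0.01 (TXNRD2, 72 h) with median-ratio factors, -0.13 (SELENOS) and 0.03 (SEPHS2) at 36 h and 0.00 (TXNRD2) at 72 h with limma, and 0.01 (TXNRD2, 72 h) with DESeq2. The cause of these shifts was not tested.

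Libraries of the same letter did not deviate together. At 36 h, footprints and mRNA of the same letter correlated at 0.065 in Cas9 and 0.014 in dCas9 cells. This was so although the study's methods say that lysates were shared between the library types. At 72 h the footprint letters (e, f) and mRNA letters (a, b) differ, so Cas9 and dCas9 libraries of the same letter were paired instead. These correlated at 0.016 in footprints and -0.15 in mRNA. Neither the labels nor the methods state such a pairing. With the letter as a replicate block, 2 genes rather than 4 were called in the ratio in dCas9 cells at 36 h, without TXNRD1 (-0.46, adjusted p = 0.109) and SELENOK (0.90, adjusted p = 0.208), and at 72 h SEPHS2 (-0.33) and SELENOS (0.31) lost theirs (adjusted p = 0.126 for both, edgeR). SELENOS translational efficiency became -0.07 at 36 h and GPX1 -0.00 at 72 h, or -0.08 with GC correction. SEPHS2 kept both 72 h calls under the block, with -1.15 in mRNA (adjusted p = 5.47e-08) and 1.25 in translational efficiency (adjusted p = 0.0341, edgeR). Crossing the mRNA letters, chosen after seeing the data, gave -0.00 for GPX1 translational efficiency and 829 calls over all genes in mRNA.

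Leaving out 1 library moved the counts of genes called from 0 to 1 for 36 h mRNA, 2 to 6 for the 36 h ratio, 0 to 2 for 72 h mRNA and 0 to 1 for 72 h translational efficiency. SELENOF mRNA at 36 h was called without dCas9 library d (-0.41, adjusted p = 0.0969), and SELENOT mRNA at 72 h without dCas9 library b (0.38, adjusted p = 0.0584, edgeR). The log2 values that changed sign or moved ran as follows without 1 library. For footprints at 36 h, they were the median -0.24 to 0.35, GPX1 -0.24 to 0.35, SELENOT -0.04 to 0.69, SELENOS -0.59 to 0.54, TXNRD1 -0.39 to 0.32 and SEPHS2 -0.32 to 0.13. For mRNA at 36 h, they were GPX1 -0.07 to 0.08, SELENOK -0.22 to 0.45, SELENOS -0.07 to 0.04, GPX4 -0.13 to 0.10, SEPHS2 -0.12 to 0.01, the median -0.07 to 0.07 and TXNRD1 -0.09 to 0.07. For translational efficiency at 36 h, they were SEPHS2 -0.30 to 0.25, SELENOS -0.51 to 0.62, TXNRD1 -0.34 to 0.36, GPX1 -0.22 to 0.42, SELENOT -0.09 to 0.64 and the median -0.18 to 0.42. For the ratio in dCas9 cells at 36 h, they were SELENOF -0.35 to 0.01 and TXNRD2 -0.16 to 0.48. For footprints at 72 h, they were the median -0.10 to 0.01, SELENOK -0.16 to 0.09, GPX4 -0.46 to 0.05, SELENOF -0.02 to 0.07, SELENOT -0.59 to 0.22, GPX1 -0.02 to 0.07 and SEPHS2 -0.06 to 0.23. For mRNA at 72 h, it was GPX1 -0.10 to 0.17. For translational efficiency at 72 h, they were TXNRD2 -0.20 to 0.13, GPX1 -0.15 to 0.19, the median -0.20 to -0.07 and SELENOT -0.80 to 0.01. For the ratio in dCas9 cells at 72 h, both the median and SELENOT ran from -0.22 to 0.02.

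Over all tested genes, the number called in mRNA at 72 h was 293, against 185 with median-ratio factors, 340 with DESeq2, 493 with no count minimum, 614 with both types in 1 fit, 706 with the replicate block, 2186 with GC correction, 2461 with both, and 5 to 2828 without 1 library. In translational efficiency at 72 h it was 78, against 136 with limma, 170, 221, 260 and 390 with median-ratio factors, DESeq2, no minimum and GC correction, 768 with block and GC correction, 249 with crossed letters, and 1 to 1065 without 1 library. At 36 h it was 0 in footprints (up to 72 without 1 library), 2 in mRNA (up to 218) and 0 in translational efficiency (1 with DESeq2, up to 474), and in 72 h footprints 4 (0 to 7 under other settings, up to 41). In the isoform windows no value moved by over 1 SD without 1 library (56 values). The shallowest 36 h footprint library held 689636 counts, and SELENOW could not be tested at its counts.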
